A study of Rattus norvegicus with 170 samples.

Results

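Cytosolic ribosomal protein genes encode the proteins that, with ribosomal RNA, build the large and small subunits of the ribosome outside mitochondria. Members were the symbols that begin with Rpl or Rps followed by a digit, together with *Rplp0*, *Rplp1*, *Rplp2* and *Rpsa*. Ribosomal protein S6 kinases and symbols marked as pseudogenes were left out. This rule selected 83 of the 24113 gene symbols in the table. Of 46 large subunit symbols, 44 were present, as were 29 of 31 small subunit symbols. The absent symbols were *Rpl22*, *Rpl35a*, *Rps14* and *Rps24*. The remaining 10 members were outside both subunit lists, and most of these were paralogues. Each member symbol with several transcripts was summed over them, which applied to 2 members.

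Ribosomal protein genes are transcribed at high rates in growing cells, and their products are needed in matched amounts. Many of their mRNAs begin with a pyrimidine tract that places their translation under mTORC1. Single-cell RNA sequencing records mRNA abundance, so neither translation nor ribosome number was measured here.

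The study asked how GNF4877, an inhibitor of DYRK1A and GSK3β that stimulates β-cell proliferation, alters single cells of the rat islet. Whole islets of wild-type male Sprague Dawley rats aged 8 weeks were hand-picked and cultured for 48 h at 5.5 mM glucose. The medium held GNF4877 at 3 µM or the vehicle DMSO at 0.1%, and the islets were then dissociated with trypsin. Cells were captured on a Fluidigm C1 chip, and their cDNA was sequenced in single reads.

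The table held 170 cells, 86 from the DMSO culture and 84 from the GNF4877 culture. β-cells were defined by at least 1000 RPM (reads per 1000000 mapped reads of the cell) of *Ins1* with less *Gcg* than that, and α-cells by the converse. This gave 56 β-cells and 5 α-cells in DMSO, against 58 β-cells and 18 α-cells in GNF4877. Both hormones passed the threshold in 22 DMSO cells and in 1 GNF4877 cell, and neither passed it in 3 and 7 cells. Among the GNF4877 β-cells, 18 had at least 1 read of *Ccnb1*, which the study used to mark proliferating cells, and 40 had none. Each treatment was 1 sample, and no animal or culture was named for a cell. Treatment, chip and culture therefore cannot be told apart, the cells of a class are not replicates of the treatment, and no difference was tested.

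The class rule itself fixes *Ins1* and *Gcg*, so only other markers can describe how far the classes differ. Median *Ins2* was 13399 RPM in DMSO β-cells and 73.5 RPM in DMSO α-cells, and 5652 and 8.06 RPM in the same classes of GNF4877. Median *Slc2a2* was 445 and 6.24 RPM in DMSO and 1292 and 8.08 RPM in GNF4877. *Slc30a8* of the β-cell list did not separate the DMSO classes, with a median of 340 RPM in β-cells and 454 RPM in α-cells (means of 416 and 399 RPM). In GNF4877 its medians were 551 RPM in β-cells and 63.1 RPM in α-cells. Median *Gcg* was 409098 RPM in DMSO α-cells and 271660 RPM in GNF4877 α-cells. *Mafa* was nearly absent, with a read in 3 of 56 DMSO β-cells and 0 of 58 GNF4877 β-cells. Acinar, endothelial, mesenchymal and immune markers had a median of 0 in all 4 classes, but some means differed. Mean mesenchymal sums were 278 and 0.31 RPM in DMSO and GNF4877 β-cells, and 0.90 and 126 RPM in the α-cells. The larger of these sums rested on few cells. *Col3a1* was read in 1 of 18 GNF4877 α-cells, at 1382 RPM, and *Col1a1* in 6 of 56 DMSO β-cells, at up to 3470 RPM. Mean immune sums were 4.55 and 61.5 RPM in the β-cells, and 0.38 and 11.1 RPM in the α-cells. The part of these means in the results was not tested. The δ-cell list had a median sum of 9.73 RPM in DMSO α-cells and 127 RPM in GNF4877 α-cells, but means of 379.9 and 167 RPM. The mean of its gene *Rbp4* was 33.9 RPM in DMSO and 151.5 RPM in GNF4877, while the mean of *Sst* was 335 RPM in DMSO and 15.9 RPM in GNF4877. The PP-cell hormone *Ppy* had medians of 3.12 and 5.36 RPM and means of 17.4 and 1267 RPM. At least 1000 RPM of *Sst* or *Ppy* was found in 1 of 5 DMSO α-cells, with 1672 RPM of *Sst*, and in 2 of 18 GNF4877 α-cells. The part of *Sst* and *Ppy* in the results was tested only by leaving such cells out, which kept all main values within 1.5-fold. The duct list consisted almost wholly of *Krt7*, which had medians of 141 RPM in DMSO β-cells and 65.4 RPM in DMSO α-cells. *Sox9* was read in 4 of 56 and 0 of 5 of these cells. In GNF4877 the *Krt7* medians were 148 RPM in β-cells and 81.8 RPM in α-cells. Its mean in α-cells was 67.6 RPM in DMSO and 187 RPM in GNF4877, and its part in the results was not tested. The hormone transcripts occupied much more of an α-cell library than of a β-cell library, with medians of 409403 RPM in DMSO α-cells, 274475 RPM in GNF4877 α-cells, 50285 RPM in DMSO β-cells and 37282 RPM in GNF4877 β-cells. RPM of all other genes are lowered accordingly, so sums are also given per 1000000 listed reads outside the hormone genes, called hormone-free RPM here. The part of the hormone share in each result was not tested beyond this rescaling.

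Summed over the members, ribosomal protein transcripts had a median of 26882 RPM in DMSO β-cells, with a lowest value of 1322 RPM and a highest of 40599.6 RPM. GNF4877 β-cells had a median of 23707 RPM and ranged from 1156 to 70249 RPM, and 9 of these 58 cells were above the highest DMSO β-cell. The lowest values of both classes came from libraries with few listed reads (below). Without these the lowest sum was 9684 RPM in DMSO β-cells and 14045 RPM in GNF4877 β-cells. The 5 DMSO α-cells were at 11096 RPM (cell 33), 8821 RPM (cell 67), 15339 RPM (cell 89), 9680.05 RPM (cell 90) and 9763 RPM (cell 94). GNF4877 α-cells had a median of 24368 RPM, a lowest value of 14388 RPM and a highest of 67654 RPM. The α-cell groups overlapped in part, because 4 of 18 GNF4877 α-cells were at or below the highest DMSO α-cell, and 1 of 5 DMSO α-cells was at or above the lowest GNF4877 α-cell. Only 7 of 56 DMSO β-cells were at or below the highest DMSO α-cell, and 4 of 53 without the libraries with few listed reads. DMSO α-cells thus had the lowest median sum of the 4 classes.

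DMSO α-cells also had the lowest median of the 4 classes once hormone reads were taken out of the denominator, although the distance was smaller. On that scale the median sum was 18385 hormone-free RPM in DMSO α-cells (16808 to 23255), 33876 in GNF4877 α-cells (20849 to 93108), 31336 in DMSO β-cells (13272 to 53928) and 28032 in GNF4877 β-cells (15102 to 77202). By this measure 2 of 18 GNF4877 α-cells were at or below the highest DMSO α-cell, and 8 of 56 DMSO β-cells were. DMSO cells with both hormones lay between the DMSO classes on this scale, with a median of 24218 hormone-free RPM. Pooling the reads of a class gave 26010.2 RPM in DMSO β-cells (95% Poisson interval 25971 to 26049), 27419.7 RPM in GNF4877 β-cells (27383 to 27456), 11036 RPM in DMSO α-cells (10939 to 11134) and 26919 RPM in GNF4877 α-cells (26853 to 26986). Intervals and floors cover counting error only, and the spread between cells was far wider.

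**Figure D1:**
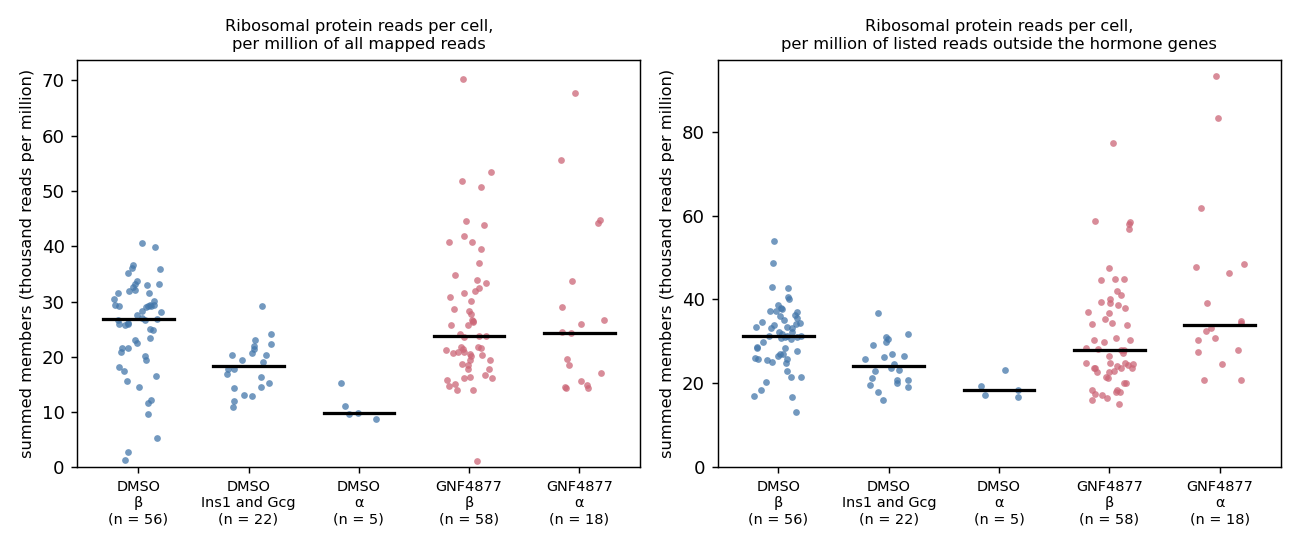
Summed ribosomal protein reads of each cell as RPM divided by 1000 (left) and as hormone-free RPM divided by 1000 (right), with a point per cell and a line at the class median. DMSO α-cells have the lowest median on both scales, 9763 RPM and 18385 hormone-free RPM.

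In α-cells, members were higher in GNF4877 than in DMSO. The median log2 ratio was 1.28 over the 81 members that passed the filter of a mean of 1 RPM, and 79 of them were above 0. The other 2 members, *Rpl3l* and *Rpl39l*, had no read in either α-cell group, and *Rps4y2* and *Rpl10l* passed the filter through GNF4877 cells alone. Of the 81 members, 59 were at least 2-fold higher, *Rps4y2* and *Rpl10l* among them, where 34.9% of all 11889 genes were. None of the 81 was at least 2-fold lower, where 23.8% of all genes were. The all-gene median was itself 0.27, which placed the members 1.01 log2 units above it. With hormone reads left out of the denominator, the all-gene median shifted to 0.04 and the member median to 1.02, so that the distance was 0.98. On that scale 41 members were at least 2-fold higher, where 31.5% of all 12402 genes were. The result depended strongly on how α-cells were defined. A hormone threshold of 100 RPM gave 3 DMSO α-cells, which were not a subset of the 5 at 1000 RPM. The median *Ins1* of those 5 was 129 RPM, so most of them were no longer α-cells. At least 1 of the 3 had passed neither threshold at 1000 RPM. At 100 RPM the member median was 0.51 and the all-gene median -0.25. Only 9 members were then at least 2-fold higher, a smaller share than the 25.5% of all genes. At 10000 RPM, with 8 DMSO α-cells, the medians were 0.96 and -0.14, and 34 members were at least 2-fold higher, where 22.98% of all genes were. The members stood 0.76 and 1.10 log2 units above the all-gene median at these thresholds. Removal of any of the cells 1 at a time kept the member median between 1.18 and 1.41 and the count between 50 and 60. The calls of 22 members depended on a single cell. Fewer genes were read in GNF4877 α-cells than in DMSO α-cells (median 5864.5 against 7026). Within GNF4877 α-cells, the member sum had a Spearman correlation of -0.54 with genes read. What part this has in the difference was not tested.

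The difference between α-cells extended over both subunits. Its median log2 ratio was 1.31 for the 44 large subunit genes and 1.28 for the 29 small subunit genes. The 7 tested genes at the rim of the exit tunnel, where nascent chains leave the ribosome, had a median of 1.07, and the 4 at the mRNA entry and decoding site of 1.37. *Rplp0*, *Rplp1* and *Rplp2* form the stalk that recruits translation factors to the large subunit, and their log2 ratios were 1.18, 1.803 and 0.94. *Rplp0* was at 788, 1073, 1864, 788 and 553 RPM in DMSO α-cells 33, 67, 89, 90 and 94, and between 737 and 5004 RPM in GNF4877 α-cells (median 2092), so the groups overlapped. *Rpl5* and *Rpl11*, which carry the 5S RNA into the ribosome and can bind Mdm2 outside it, had log2 ratios of 1.57 and 1.71. DMSO α-cells ranged from 35.99 to 474 RPM of *Rpl5* and from 74.03 to 199 RPM of *Rpl11*, against medians of 601 and 331 RPM in GNF4877 α-cells. *Rps6*, the substrate of S6 kinase, had a log2 ratio of 1.94, with 86.2 to 229.8 RPM in DMSO α-cells and a median of 371 RPM in GNF4877 α-cells. *Rpl13a*, which in human monocytes leaves the ribosome to silence inflammatory mRNAs, had a log2 ratio of 1.29. Its value of 194 RPM in DMSO α-cell 89 was above the 50.0 to 78.4 RPM of the other DMSO α-cells. *Rps27a*, whose product is made as a fusion with ubiquitin, had a log2 ratio of 1.11, which was 0.94 without GNF4877 α-cell 71 (550.1 RPM) and 0.98 without DMSO α-cell 90 (56.3 RPM).

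Among members with a mean of at least 10 RPM, the highest ratio between α-cell groups belonged to *Rps4y2*, a relative of *Rps4x*. No DMSO α-cell had a read of it, and 7 of 18 GNF4877 α-cells did. Against a floor of 3 reads over the DMSO α-cells it was at least 50.9-fold higher in GNF4877. GNF4877 α-cell 66 alone had 299.9 RPM of it, and without that cell the log2 ratio with a pseudocount was 4.30 instead of 5.14. At hormone thresholds of 100 and 10000 RPM it was 1.504 and 1.4997. *Rps2*, a protein at the mRNA entry of the small subunit, followed at 2.69, with 12.2, 14.1, 14.6, 5.92 and 11.1 RPM in DMSO α-cells 33, 67, 89, 90 and 94 and a median of 74.97 RPM in GNF4877 α-cells. With cells thinned to 100000 reads its log2 ratio was 1.39, and at hormone thresholds of 100 and 10000 RPM it was 0.90 and 2.01. *Rpl12*, at the base of the stalk, had a log2 ratio of 2.45. It was at 38.5 RPM in DMSO α-cell 90 and at 3.12 to 13.1 RPM in the other DMSO α-cells, and without cell 90 the log2 ratio was 3.15. At the same thresholds it was 0.66 and 1.33. *Rpl7a* had a log2 ratio of 2.31 and separated the groups completely, with 62.7, 73.5, 60.3, 56.3 and 56.99 RPM in DMSO α-cells 33, 67, 89, 90 and 94 against 120.8 to 1021 RPM in GNF4877 α-cells. Its log2 ratio was 1.35 and 1.71 at these thresholds. *Rpl13* had a log2 ratio of 2.07, from 26 to 85.4 RPM in DMSO α-cells to 55.5 to 539.8 RPM in GNF4877 α-cells, which overlapped, and at 100 RPM the log2 ratio was 0.83.

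At the other end, the stress-induced paralogue *Rps27l* had a log2 ratio of -0.10 between the α-cell groups and *Rpl39*, which lines the exit tunnel, -0.03. These were the only tested members below 0. *Rpl38*, *Rps15* and *Rpl37* followed with 0.18, 0.24 and 0.35, and *Rpl38* was at -0.44 with a hormone threshold of 100 RPM. *Rps27l* differed widely among DMSO α-cells, with 91.5 RPM in cell 33, 45.4 in cell 67, 2.08 in cell 89, 88.8 in cell 90 and 15.3 in cell 94. It was read in 14 of 18 GNF4877 α-cells, at a median of 23.8 RPM. *Rps27* had a log2 ratio of 0.64 and *Rpsa*, known also as the laminin receptor, of 0.73. At a hormone threshold of 100 RPM these were 0.02 and -0.28.

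Within DMSO, members were lower in α-cells than in β-cells. The median log2 ratio of α-cells over β-cells was -1.26, and 0 of the 81 tested members were above 0. At least 2-fold lower were 57 members, where 45.6% of all 12855 genes were. At least 2-fold higher were 0 members, where 12.9% of all genes were. Most genes leaned the same way in this comparison, since the all-gene median was -0.81, and the distance of the member median from it was -0.45. Scaling to listed reads lowered the all-gene median to -0.94 and the member median to -1.39, again a distance of -0.45. Leaving hormone reads out of the denominator raised the all-gene median to -0.37 and the member median to -0.77, with 25 members at least 2-fold lower and a distance of -0.40. On that scale 20.2% of all genes were called higher and 37.6% lower, so the members called lower were a smaller share than among all genes. The same held at a hormone threshold of 100 RPM, where the member median was -0.55, the all-gene median -0.35 and 10 members were at least 2-fold lower, against 35.8% of all genes. At 10000 RPM these values were -0.86, -0.47, 30 members and 32.5%. Without any 1 cell the member median stayed between -1.40 and -1.19 and the count between 51 and 58. The calls of 23 members depended on a single cell.

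*Rps4y2* and *Rpl10l*, without a read in DMSO α-cells, passed the filter of this comparison through β-cells alone, and both count among the members called lower. *Rps4y2* was read in 26 of 56 β-cells, and against a floor of 3 reads over the α-cells it was at least 26.4-fold lower there. *Rpl12* had a log2 ratio of -2.43, which was -3.13 without DMSO α-cell 90 and its 38.5 RPM. At hormone thresholds of 100 and 10000 RPM it was -0.97 and -1.37. *Rps2* was at -2.06 (-1.24 with cells thinned to 100000 reads, -0.43 at 100 RPM) and *Rpl23*, which lies at the interface of the subunits, at -1.91 (-1.09 at either threshold). *Rps6* and *Rps27* were at -1.89 and -1.88, and *Rps6* was at -0.89 at 100 RPM. *Rps27l* had a log2 ratio of -1.81, which was -1.21 in hormone-free RPM. The β-cell values of 0 for *Rps2*, *Rpl23* and *Rpl12* were all in libraries with few listed reads. Without these, 6 of 53 DMSO β-cells were at or below the highest DMSO α-cell for *Rps2*, 1 for *Rpl23* and 5 for *Rpl12*, so the classes overlapped in part.

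A few members differed little between DMSO α-cells and β-cells. *Rpsa* had a log2 ratio of -0.10, with 304, 175, 295, 207 and 322 RPM in α-cells 33, 67, 89, 90 and 94 and a median of 276 RPM in β-cells, but at a hormone threshold of 100 RPM its log2 ratio was 0.68. *Rpl9* was at -0.21, *Rpl27a* at -0.27, *Rpl39* at -0.46 and *Rps13* at -0.59. All 5 were above the all-gene median of that comparison. The stalk genes *Rplp0*, *Rplp1* and *Rplp2* had log2 ratios of -0.95, -1.66 and -0.80, and *Rpl5* and *Rpl11* of -1.46 and -1.70. For *Rplp0* the call rested on DMSO α-cell 89, with 1863.6 RPM, since its log2 ratio without that cell was -1.29. *Rpl13a* at -0.93 likewise became -1.40 without the same cell, which had 194 RPM. *Rps27a* had a log2 ratio of -0.64.

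Between β-cell groups the members differed little as a set. Their median log2 ratio of GNF4877 over DMSO was 0.11, with 45 of 81 above 0, and the all-gene median was -0.08. The member at least 2-fold higher was *Rps19bp1*, where 11% of all 13261 genes were at least 2-fold higher. The member at least 2-fold lower was *Rps27*, where 17% of all genes were. Scaling to reads outside the hormone genes shifted the all-gene median to -0.15 and the member median to -0.05, and at a hormone threshold of 10000 RPM the member median was -0.06. The sign of the member median thus depended on these choices, while its distance above the all-gene median was 0.18, 0.11 and 0.07 in the order given. Large subunit genes had a median of 0.11 and small subunit genes of -0.07. All members whose symbols begin with Rpl were summed per cell and divided by the sum of those in Rps, paralogues and *Rps19bp1* included. This ratio had a median of 2.31 in DMSO β-cells, 2.68 in GNF4877 β-cells, 2.43 in DMSO α-cells and 2.65 in GNF4877 α-cells.

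*Rps27* stood apart from all other members in this comparison. It encodes a zinc-finger protein of the small subunit, and its mean was 556 RPM in DMSO β-cells and 213 RPM in GNF4877 β-cells, which is 2.61-fold lower and a log2 ratio of -1.38. That placed it at percentile 11 of all tested genes. DMSO β-cells ranged from 3.02 to 1353 RPM with a median of 586 RPM, and GNF4877 β-cells from 0 to 716 RPM with a median of 181 RPM. Without the libraries with few listed reads the lowest values were 178 and 29.4 RPM, and the groups still overlapped. Its share of the summed members was 2.19% in DMSO β-cells and 0.787% in GNF4877 β-cells. In α-cells the corresponding shares were 1.38% and 0.835%. *Rps27* was therefore a smaller part of the member sum in GNF4877 than in DMSO in both cell types, while its mean in α-cells was higher, 234 RPM against 150.5 RPM. That last difference depended on the hormone threshold, since the log2 ratio of 0.64 was 0.02 at 100 RPM and 0.03 at 10000 RPM.

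Its paralogue *Rps27l*, a p53 target, was the next lowest in β-cells at -0.68. Its median was 167 RPM in DMSO β-cells (0 to 474) and 94.9 RPM in GNF4877 β-cells (0 to 318), and the lowest values were 33.96 and 2.14 RPM without the libraries with few listed reads. *Rpl37*, *Rpl38* and *Rpl37a* followed at -0.56, -0.54 and -0.51. Apart from *Rps27*, none of these lowest members was past 2-fold. At the upper end were *Rps4y2* at 0.92, *Rpl7a* at 0.72, *Rpsa* at 0.69, *Rpl7* at 0.64 and *Rpl7l1* at 0.48, for which the difference of mean log2 values per cell was -0.11. *Rps4y2* was below the 2-fold line, and it was past it without any 1 of DMSO β-cells 10 (126.5 RPM), 36 (169 RPM), 78 (80.2 RPM) or 86 (112 RPM). *Rpsa* had a median of 276 RPM in DMSO β-cells and 358 RPM in GNF4877 β-cells, and the ranges of 0 to 692 RPM and 3.08 to 1859.8 RPM overlapped, also without the libraries with few listed reads (from 63.4 and 45.3 RPM).

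**Figure D2:**
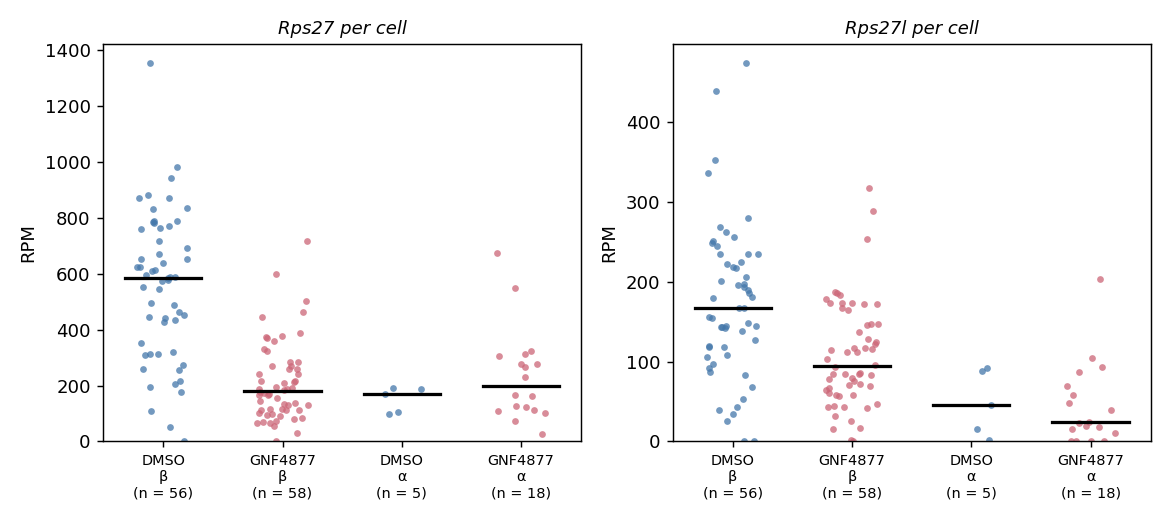
RPM of *Rps27* (left) and *Rps27l* (right) in each cell of the 4 classes, with a point per cell and a line at the median. Median *Rps27* is 586 RPM in DMSO β-cells and 181 RPM in GNF4877 β-cells, with overlapping ranges.

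Most of the remaining named members differed little between β-cell groups, with log2 ratios of 0.26 for *Rplp0*, 0.27 for *Rplp1*, 0.22 for *Rplp2*, 0.13 for *Rpl5*, 0.04 for *Rpl11*, -0.08 for *Rps6*, -0.01 for *Rpl13a* and 0.11 for *Rps27a*. Members ordered by their ratio in β-cells were ordered in part alike in α-cells. The Spearman correlation across members between the β-cell and α-cell ratios was 0.45 over 81 members and 0.51 over the 73 of the subunit lists, against 0.17 over 11277 genes of the whole table. Genes are not independent replicates, and both ratios compare the same pair of cultures, though they share no cell. *Rps27l*, *Rpl37* and *Rpl38* were among the 5 lowest members in both cell types. *Rpl7a* and *Rps4y2* were among the 5 highest in both, the latter without a read in DMSO α-cells.

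**Figure D3:**
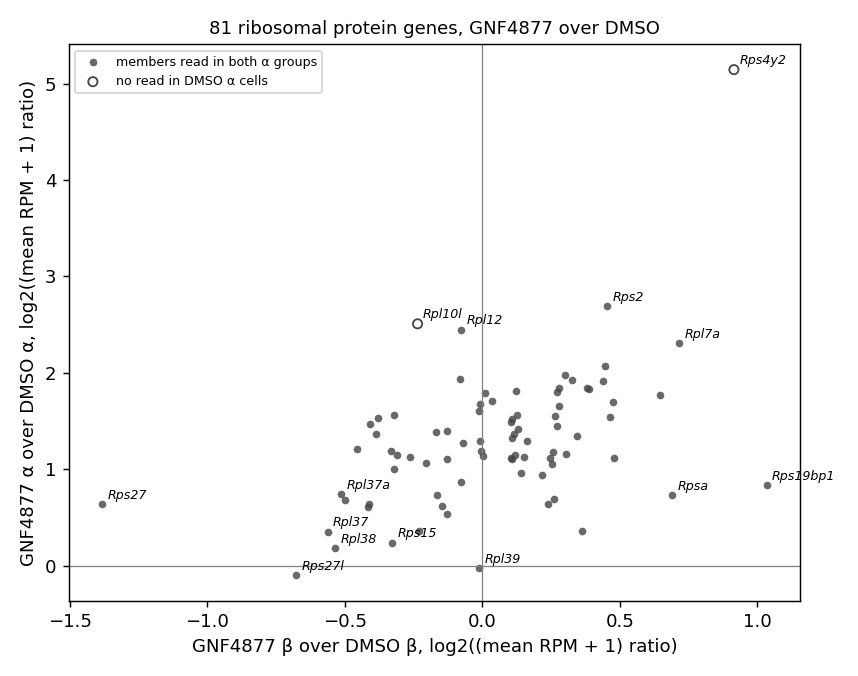
Log2 ratio of GNF4877 over DMSO for 81 members, in β-cells on the horizontal axis and in α-cells on the vertical axis; open circles mark members without a read in DMSO α-cells. *Rps27* lies alone on the left at -1.38, and *Rps27l* and *Rpl39* are below 0 on the vertical axis.

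Within the GNF4877 culture, the member median of α-cells and β-cells was alike in RPM. The median log2 ratio of α-cells over β-cells was 0.00, with 41 members above 0 and 40 below. This even split depended on the scale, since 67 of the 81 members were above 0 in hormone-free RPM and 30 per listed reads. No member was at least 2-fold higher, where 13.8% of all 12812 genes were, and the 1 member at least 2-fold lower was *Rps27l*, where 33.5% of all genes were. Members called lower numbered 5 per listed reads, 1 in hormone-free RPM (where 1 was called higher), 4 at a hormone threshold of 100 RPM and 2 at 10000 RPM. Relative to the all-gene median of -0.42, the members stood 0.42 log2 units higher. Scaling to reads outside the hormone genes gave an all-gene median of -0.10 and a member median of 0.36, a distance of 0.46, with 18.4% of all genes called higher and 28.2% lower. *Rps27l* had a log2 ratio of -1.24, and the difference of mean log2 values per cell was -2.16. Behind it came *Rpl36al* at -0.97, *Rpl10a* at -0.77, *Rpl23* at -0.77 and *Rps10* at -0.55. *Rpl36al* was just short of 2-fold and was past it without any 1 of 6 of the GNF4877 α-cells, among them cell 66 with 82.7 RPM. *Rpl10a*, a protein of the flexible stalk opposite *Rplp0*, was past it without GNF4877 α-cell 42, which had 107.7 RPM. The highest members were *Rps15a* at 0.70, *Rpl9* at 0.61, *Rpl13* at 0.54 (-0.16 per listed reads), *Rpl3* at 0.51 and *Rps12* at 0.47. *Rpl3*, which reaches to the catalytic centre of the large subunit, had medians of 1748 RPM in GNF4877 α-cells and 1727 RPM in GNF4877 β-cells, so its ratio of means came from the upper part of the α-cell range (782 to 8667 RPM).

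The lower member level of α-cells in DMSO was thus not seen in GNF4877, with distances of the member median from the all-gene median of -0.45 in DMSO and 0.42 in GNF4877. At a hormone threshold of 100 RPM these distances were -0.20 and 0.45, and at 10000 RPM they were -0.40 and 0.52. Since the 5 DMSO α-cells enter both this contrast and the contrast of α-cells between treatments, these are not independent observations.

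Among GNF4877 β-cells, members were slightly lower in *Ccnb1*-positive than in *Ccnb1*-negative cells. The median log2 ratio was -0.24, with 10 of 82 above 0, and the all-gene median was -0.01. At least 2-fold higher was 1 member, *Rps19bp1*, where 17.3% of all 12594 genes were. At least 2-fold lower were *Rpl10l* and *Rpl39l*, where 17.6% of all genes were. Members called lower numbered 5 per listed reads (19.9% of all genes) and 5 in hormone-free RPM (19.8%). At a hormone threshold of 10000 RPM they numbered 3 (18.9%). The summed members had a median of 20641 RPM in *Ccnb1*-positive cells (14045 to 50727) and 26019 RPM in *Ccnb1*-negative cells (1156 to 70249, or from 14807 without cell 2, where few reads were listed). The groups overlapped widely. Large and small subunit genes had like medians, -0.24 and -0.23, and the 7 exit tunnel rim genes had -0.41, with 0 of them above 0. Cells positive by this marker thus did not have a higher median ribosomal protein sum than the others. A single read makes a cell positive, and positive cells had more mapped reads (median 1553520 against 1381750) and more genes read (7369.5 against 6913). Cells of this class with more genes read had lower member sums, and what part this has in the difference was not tested.

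Among members with a mean of at least 10 RPM in that comparison, the lowest were *Rpl22l1* at -0.83, *Rps15a* at -0.75, *Rps2* at -0.64, *Rpl35* at -0.62 and *Rpl10* at -0.55. *Rps2* rested on a few cells. *Ccnb1*-positive cell 14 had 302 RPM of it, and without that cell the log2 ratio was -1.12. *Ccnb1*-negative cell 2, in which 3.03% of reads fell on listed transcripts, had 249.7 RPM of it, and scaling to listed reads moved the log2 ratio to -2.38. The highest were *Rps27l* at 0.62, *Rps4y2* at 0.38, *Rps29* at 0.23, *Rps20* at 0.15 and *Rps21* at 0.11. *Rps27l* had a median of 137 RPM in positive and 85.4 RPM in negative cells. In this it was opposite to *Rps27*, whose log2 ratio was -0.23.

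Some paralogues and relatives of ribosomal proteins were sparse, while others were read in most cells. *Rpl3l*, a muscle paralogue of *Rpl3*, had no read in any of the 4 classes. *Rpl39l*, a male germ line paralogue of *Rpl39*, was read in 1 of 58 GNF4877 β-cells, at 83.1 RPM in cell 21, and in no other class. Its call between *Ccnb1* groups rested on that cell. *Rpl10l*, a testis paralogue of *Rpl10*, was read in 10 of 56 DMSO β-cells, 16 of 58 GNF4877 β-cells, 0 of 5 DMSO α-cells and 2 of 18 GNF4877 α-cells. Between α-cell groups it was at least 6.95-fold higher in GNF4877, which rested on GNF4877 α-cell 27 with 83.7 RPM, and it was at least 12.5-fold lower in DMSO α-cells than in DMSO β-cells. Without that cell its ratio of α-cells over β-cells in GNF4877 was -2.94 instead of -0.49. Between *Ccnb1* groups its log2 ratio was -2.88.

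*Rps19bp1*, which carries the symbol of the protein it binds and is not a ribosomal protein, was read in 28 of 56 DMSO β-cells, 37 of 58 GNF4877 β-cells, 2 of 5 DMSO α-cells and 6 of 18 GNF4877 α-cells. It was low, with means of 2.98 and 7.15 RPM in DMSO and GNF4877 β-cells. Its log2 ratio between β-cell groups was 1.03, and without any 1 of 7 GNF4877 β-cells, among them cell 14 with 68.3 RPM, it was under 1. Without that same cell its ratio between *Ccnb1* groups was 0.84 instead of 1.24. *Rpl22l1*, the paralogue of the absent *Rpl22*, was read in 52 of 56 DMSO β-cells, 52 of 58 GNF4877 β-cells, 4 of 5 DMSO α-cells and 18 of 18 GNF4877 α-cells. Its log2 ratio was 0.48 between β-cell groups and 1.70 between α-cell groups, and the latter was 2.62 without DMSO α-cell 33, which had 27.9 RPM. *Rpl22l2*, a further relative of *Rpl22*, was read in 48, 52, 4 and 16 cells of the same classes, at medians of at most 6.38 RPM. Its log2 ratio between α-cell groups was 1.16, which was 0.92 without DMSO α-cell 89 and its 0 RPM. *Rpl7l1*, a nucleolar relative of *Rpl7*, was read in 53, 49, 4 and 12 cells of the same classes. DMSO α-cell 90 had 195.4 RPM of it, and without that cell its ratio between α-cell groups was 2.16 instead of 1.11. It was below 1 without GNF4877 α-cell 42 (0.78 without its 626.5 RPM), 9, 69 or 94, or without DMSO α-cell 67, 89 or 94.

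Read detection of the members was high in all classes. In DMSO β-cells 77 of 83 members were read in at least 90% of cells, and in each of the other 3 classes 75 were. Not read at all were 2 members in DMSO β-cells, 1 in GNF4877 β-cells, 4 in DMSO α-cells and 2 in GNF4877 α-cells. Members varied more between cells in GNF4877 than in DMSO. The median coefficient of variation of a member was 0.444 in DMSO β-cells, 0.589 in GNF4877 β-cells, 0.425 in DMSO α-cells and 0.672 in GNF4877 α-cells. Median genes read per cell were 8809, 7059.5, 7026 and 5864.5 in that order, and their part in these differences was not tested. For the summed members the coefficient was 0.343, 0.443, 0.237 and 0.553 in the same order. The DMSO α-cell values rest on 5 cells, and no coefficient over all genes is given beside those of the members. The wider variation in GNF4877 is therefore not shown to be particular to the members.

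Members tended to be high together in the same cells of the 3 larger classes, while the 5 DMSO α-cells were too few to describe in this way. Each member read in at least 50% of a class was correlated with the sum of the other members, in hormone-free RPM. The median Spearman correlation was 0.577 over 79 members in DMSO β-cells, 0.648 over 80 in GNF4877 β-cells and 0.681 over 78 in GNF4877 α-cells. These are descriptions of cells from 1 culture per treatment. The highest in DMSO β-cells was *Rpl23* at 0.76 and the lowest *Rps19bp1* at -0.04. In GNF4877 β-cells *Rpl37* was highest at 0.91 and *Rpl7l1* lowest at -0.17. *Rps27*, in spite of its lower level, followed the other members closely in GNF4877 β-cells, at 0.86, and *Rps27l* did not, at 0.00. In GNF4877 α-cells *Rps27l* was lowest at -0.42. Cells with a larger member sum had fewer genes read, with Spearman correlations of -0.32 in DMSO β-cells, -0.57 in GNF4877 β-cells and -0.54 in GNF4877 α-cells.

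The genes outside the set that followed the member sum most closely in DMSO β-cells were mainly provisional loci. The highest was *LOC100911847* at 0.76, with 0.78 in GNF4877 β-cells. Next were *LOC687676* at 0.75, *LOC100360654* at 0.73, *LOC100911372* at 0.73, *LOC100363452* at 0.73, *RGD1566369* at 0.73, *LOC688684* at 0.72, *RGD1563861* at 0.72 and *LOC100360781* at 0.72. Of these only *RGD1563861* matched a current RefSeq gene, a pseudogene of *Rpl10*. The tenth was *Ncl*, which encodes nucleolin, at 0.72 with 0.55 in GNF4877 β-cells. The median over 8197 genes outside the members was -0.10. Other mRNAs known to start with a pyrimidine tract had a median of 0.34 over 19 genes, mitochondrial ribosomal proteins of 0.01 and abundant housekeeping genes of -0.15. Among the former, *Fau*, which encodes a ribosomal protein as a fusion with a ubiquitin-like protein, was at 0.61.

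Those other pyrimidine-tract mRNAs had medians of the same sign as the members in both comparisons that involve DMSO α-cells. Their median log2 ratio was 0.98 between α-cell groups, -1.002 for α-cells over β-cells in DMSO, -0.09 for the same in GNF4877 and 0.21 between β-cell groups, and the members had 1.28, -1.26, 0.00 and 0.11. Between α-cell groups, 9 of the 19 were at least 2-fold higher and 0 lower, where 34.9% and 23.8% of all genes were and 59 of 81 members were higher. Mitochondrial ribosomal proteins, which are encoded by a separate set of nuclear genes, had a median of 0.53 between α-cell groups and -0.85 for α-cells over β-cells in GNF4877. In that comparison they were below the all-gene median of -0.42, whereas the cytosolic members were above it. For α-cells over β-cells in DMSO both sets were below the all-gene median of -0.81, at -1.11 for the mitochondrial and -1.26 for the cytosolic proteins. Abundant housekeeping genes had medians of 0.35 between α-cell groups and 0.59 between β-cell groups, and 5 of the 19 were at least 2-fold higher between α-cell groups. Genes of mTORC1 and its S6 kinase branch had medians of -0.13 and -0.43, over 13 genes that went both ways. Between α-cell groups 3 of them were at least 2-fold higher and 4 lower. Between β-cell groups 0 were higher and 5 lower, where 11% and 17% of all genes were.

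Some reads of ribosomal protein mRNA were listed under other names. Under current RefSeq annotation, 16 transcripts with other names belong to ribosomal protein genes or their copies. *LOC683961*, a copy of *Rps13*, amounted to 62.01% of the level of *Rps13* in DMSO β-cells, 61.4% in GNF4877 β-cells, 65.6% in DMSO α-cells and 59.8% in GNF4877 α-cells. *RGD1563861* amounted to 32.98%, 32.2%, 29.3% and 31.5% of *Rpl10*. The shares of these copies were alike in the 4 classes, and such reads cannot be assigned to the copy or the parent gene. The member *Rps4y2*, set against *Rps4x* in the same way, amounted to 5.46%, 10.6%, 0% and 10.1%, so its share was not alike. Whether its reads stem from *Rps4x* was not tested. *LOC100359498*, now named *Rpl35a*, was at 36.5, 32.9, 16.1 and 38.04 RPM in the same order, with the lowest level in DMSO α-cells as for most members.

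A small number of libraries had few reads on listed transcripts. In 7 cells under 50% of mapped reads were listed, among them DMSO β-cells 48 (8.99%), 73 (4.65%) and 80 (18.9%) and GNF4877 β-cell 2 (3.03%). These 4 cells gave the lowest member sums of their classes, 2737, 1322, 5309.96 and 1156 RPM. Per 1000000 listed reads they were at 30456, 28402, 28051 and 38109.8, where the class medians were 29443 in DMSO and 26008 in GNF4877. The 3 DMSO cells were thus near their median, and the GNF4877 cell was above its median. The sums of these cells in RPM were thus low together with all listed transcripts.

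The annotated transcription start was examined for a C followed by at least 4 further pyrimidines, the form of a 5′ terminal oligopyrimidine tract. In the GRCr8 assembly, 21 of 66 promoters of 65 member symbols had it (31.8%), against 881 of 33469 promoters of all genes (2.63%) and 2 of 57 promoters of mitochondrial ribosomal proteins (3.51%). It was found at 0 of 16 promoters of the other mRNAs known to start with such a tract and at 0 of 19 promoters of abundant housekeeping genes. Annotated starts can lie away from the start used in a cell, so a missing tract does not show that a gene lacks it. Members with such a start had a median log2 ratio of -0.01 between β-cell groups and 1.004 between α-cell groups, and members without it of 0.11 and 1.29. To show the form of the tract in members named above, chosen after their values were seen, 30 bases around the annotated start are printed for *Rps27* (chr2:177964587-177964616, minus strand), *Rpl37* (chr2:55942935-55942964, plus strand), *Rpl37a* (chr9:81748081-81748110, plus strand), *Rplp0* (chr12:46718371-46718400, minus strand) and *Rps15* (chr7:10068096-10068125, minus strand). The start is base 11 of each, capitals mark the pyrimidine run that begins there, and the sequences and coordinates are from NCBI RefSeq annotation of GRCr8.

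Rps27: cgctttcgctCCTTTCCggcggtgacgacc
Rpl37: ggcgtactttCTCTTCCggtctctttggcc
Rpl37a: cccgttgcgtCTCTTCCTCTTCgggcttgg
Rplp0: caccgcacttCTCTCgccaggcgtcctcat
Rps15: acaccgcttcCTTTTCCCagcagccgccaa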

How the data were processed

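The deposited table gives RPM (reads per 1000000 mapped) for each transcript and cell, as computed by the authors, who named CASAVA 1.8.2, BWA 0.5.9 and SAMtools 0.1.19. Values of 0.01 stand for no read and were set to 0. Mapped reads per cell were taken from the smallest positive value, since 100% of values up to 20 reads were whole multiples of it within 0.1. Transcripts of a symbol were summed. Ratios are log2 of mean RPM plus 1 over mean RPM plus 1, for genes whose class means average at least 1 RPM. No test was run, because each treatment is 1 sample. The named genes are the 5 highest and 5 lowest ratios of each comparison among members averaging at least 10 RPM, a fixed list with every paralogue, and the 10 genes most like the members. A ranking of members per kb of coding length could not be made, because no lengths were available. Genes named outside this rule were chosen after their values were seen. Members and lists were chosen with earlier results of these data known. Leaving out cells with under 50% of reads on listed transcripts was an alternative chosen after seeing the data. The tools were scipy 1.17.1, pandas 2.3.3 and numpy 2.4.6 under Python 3.11.15, with figures from matplotlib 3.10.9. Transcripts were matched to RefSeq GRCr8 by identifier. The published methods name a mouse transcriptome for alignment, whereas the identifiers in the table are of rat, and the values were read as rat. Which reference was used bears on reads shared by paralogues and copies.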

Additional observations from a re-analysis of the deposited data

Results flagged for a closer look

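Of 27 quantities examined over the 5 DMSO α-cells, 2 had a value far from the others. A ratio without the cell in question is given above for both, and neither was weighed beyond that. *Rpl12* was at 38.5 RPM in cell 90, where the nearest other cell had 13.1 RPM, and the gap was 0.719 of the range. *Rpl13a* was at 194 RPM in cell 89, where the nearest other cell had 78.4 RPM, and the gap was 0.803 of the range. The rule used picks out some groups by chance.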

How the results depend on the processing

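No value of at least 2-fold changed sign. The median log2 ratio of the members kept its sign under all alternatives for α-cells between treatments, for α-cells over β-cells in DMSO and for the *Ccnb1* groups. It was near 0 and changed sign for β-cells between treatments (-0.01 per listed reads, -0.05 in hormone-free RPM, -0.06 at a hormone threshold of 10000 RPM) and for α-cells over β-cells in GNF4877 (from -0.09 per listed reads to 0.36 in hormone-free RPM). Of the main values, 149 comparisons with an alternative were within 1.5-fold and 9 were not. Of the counts of members and all-gene medians, 175 were and 33 were not.

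These 9 concern the DMSO α-cells. Their median summed RPM was 18385 with hormone reads left out of the denominator and 15339 with a hormone threshold of 100 RPM. For α-cells between treatments the member median was 0.51 at a threshold of 100 RPM, and the members at least 2-fold higher numbered 9 at 100 RPM (25.5% of all genes) and 34 at 10000 RPM (22.98%), instead of 59 (34.9%). For α-cells over β-cells in DMSO the member median was -0.55 at 100 RPM. The members at least 2-fold lower numbered 25 with hormone reads left out (37.6% of all genes), 10 at 100 RPM (35.8%) and 30 at 10000 RPM (32.5%), instead of 57 (45.6%). DMSO α-cells numbered 3, 5 and 8 at thresholds of 100, 1000 and 10000 RPM. The 3 were not a subset of the 5, whose median *Ins1* of 129 RPM was above the threshold of 100 RPM. The cause of the moved values was not tested.

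Leaving out 1 cell at a time kept the member medians within 0.06 to 0.13 (β-cells between treatments), 1.18 to 1.41 (α-cells between treatments), -0.07 to 0.05 (α over β in GNF4877), -1.40 to -1.19 (α over β in DMSO) and -0.37 to -0.18 (*Ccnb1* groups). Median sums stayed within 26805 to 26959 RPM in DMSO β-cells, 23678 to 23737 in GNF4877 β-cells, 9721 to 10429 in DMSO α-cells and 24327 to 24409.7 in GNF4877 α-cells. Without the cells with under 50% of reads on listed transcripts, an alternative chosen after seeing the data, the median correlation of a member with the others was 0.643 in DMSO β-cells and 0.688 in GNF4877 β-cells. Among named members, 39 values moved past 1.5-fold and 889 did not. *Rps27* had a log2 ratio between α-cell groups of 0.02 at 100 RPM and 0.03 at 10000 RPM, and *Rps2* of 1.39 with cells thinned to 100000 reads.

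Cells could not be paired, since there is 1 sample per treatment. The 5 DMSO α-cells limit every comparison that includes them. At 888908 mapped reads on average per DMSO α-cell, members of a few RPM are a handful of reads. Treatment cannot be told apart from culture, animal or chip, and RPM are relative, so a change of total RNA per cell would not be seen.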

Other observations

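The 22 DMSO cells with both hormones were left out of the comparisons. Their summed members had a median of 18422 RPM, with a lowest value of 10980.1 RPM and a highest of 29110.1 RPM, and their hormone reads a median of 226444 RPM. Pooled, their members amounted to 18653 RPM, between 26010.2 RPM in DMSO β-cells and 11036 RPM in DMSO α-cells. The 1 GNF4877 cell with both hormones had 24203 RPM.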
